A study of Mus musculus with 3 samples.

Results

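LIM kinases and cofilins set the pace of actin filament turnover, and their transcripts were followed here in hearts of mouse embryos at E15.5. The set held 10 genes: the LIM kinases Limk1 and Limk2, the ROCK kinases Rock1 and Rock2, the cofilin kinase Tesk1, the cofilin family genes Cfl1, Cfl2 and Dstn, and the slingshot phosphatases Ssh1 and Ssh2. Every gene probe that carried one of these symbols was taken, which gave 17 probes of 41174 and 10 genes of 28058, and all 17 were bright enough to be tested. Limk2 was selected on its log2 ratios in this same comparison, in which 1 of its probes was the only probe called lower, so its values are given as a description. The question put to the other 9 genes was whether they moved as well.

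None of the 15 probes of those 9 genes was called higher or lower. Over all tested probes, 1.39% were called higher and 0.00353% lower. Both Limk2 probes, and the single probe of its paralogue Limk1, were lower on 3 of 3 arrays in the channel labelled Lrrc10-/-. Cfl2, the muscle cofilin, was also lower on 3 of 3 arrays, whereas Cfl1 and Dstn changed sign between arrays. Of the 4 probes of the upstream ROCK kinases, the 3 for Rock1 had means above 0 and the 1 for Rock2 a mean below 0.

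Cofilin binds actin filaments, severs them and speeds the loss of subunits. LIM kinases, and the related kinase Tesk1, phosphorylate cofilin on a serine near its start and switch it off, while slingshot phosphatases remove that phosphate and switch it on again. ROCK kinases, driven by the GTPase RhoA, and p21-activated kinases, driven by Rac and Cdc42, activate the LIM kinases by phosphorylation. The pathway therefore acts mainly through protein phosphorylation, which a transcript array does not measure. In heart muscle, cofilin activity helps to set the length of the thin filaments of the sarcomere.

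Each of 3 two-colour arrays carried RNA pooled from 2 Lrrc10-/- hearts, labelled with Cy5, and RNA pooled from 2 wild-type (Lrrc10+/+) hearts, labelled with Cy3. Lrrc10 makes a cardiomyocyte protein built of leucine-rich repeats, and the study's methods describe the animals as null for it. Both genotypes were on a C57BL/6 background and were taken at E15.5 as littermates per the study's methods, although the wild-type labels also hold an adult age that was not used. Each array is 1 replicate, and no dyes were exchanged, so genotype and dye cannot be told apart at any probe. Values are log2 ratios of Cy5 over Cy3 after background correction and loess normalization, so a negative value means lower signal in the channel labelled Lrrc10-/-.

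The targeted gene went against the labels. The Lrrc10 probe had log2 ratios of 3.99, 4.78 and 4.45 on replicates 1, 2 and 3. It was thus higher in the channel labelled Lrrc10-/- on 3 of 3 arrays. Its processed signals were 6294, 8521 and 12640 in Cy5, against 281, 237 and 200 in Cy3, the channel labelled wild type. Whether that probe lies in the deleted part, and whether the labels were exchanged, was not settled here. If the labels were exchanged, every direction given here would turn. The study reports Actn2 as higher in Lrrc10-/- hearts, on its arrays and by qRT-PCR. It reports the same by qRT-PCR for Actc1, Vcl, Ilk, Itgb1, Parva and Nppa. It also places actin cytoskeleton regulation among its most upregulated pathways at E15.5, by its own fold and p cut-offs. Those cut-offs were not applied here, and only Actn2 and Actg1 were compared. Here the mean for Actn2 had the opposite sign, at -0.28, but its log2 ratios of -0.59, -0.28 and 0.05 turned on replicate 3. For Actg1, which the study also names, the probes differed in sign. Their means were 0.19 and -0.27, and neither these nor Actn2 were called. Replicate 3 had the fewest gene spots well above background in Cy5, 63.9%, against 82.4 to 88.9% on the others. Log2 ratios over all tested probes correlated at 0.509 between replicates 1 and 2, and at 0.223 and 0.218 between replicate 3 and replicates 2 and 1. Liver transcripts stood apart on replicate 2, where the 4 tested liver markers of 7 had a median log2 ratio of -2.04, against 0.76 and 0.13 on replicates 1 and 3, and all 4 were well above background in both channels on each array. All 7 cardiomyocyte markers were well above background in both channels on all arrays.

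The values for the LIM kinases and cofilins rest on the following 60-base probes, of which the first 30 bases are printed 5′ to 3′ as deposited, since for Limk2 and Cfl1 the same gene was read at separate places.

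Limk2, probe A_51_P289223, chr11:3244586-3244645 (mm9, minus strand): aggtttgttatttaagcgggagctcacgcc
Limk2, probe A_52_P393755, chr11:3245594-3245653 (mm9, minus strand): ttcctgtggattgaaggcttgcttagaggc
Limk1, probe A_51_P484030, chr5:135131939-135131998 (mm9, minus strand): tctccttgcctcggcccagtgatcatgaca
Cfl1, probe A_52_P477720, chr19:5493385-5493444 (mm9, plus strand): caagcatgaattacaagctaactgctacga
Cfl1, probe A_52_P748958, chr19:5493882-5493941 (mm9, plus strand): gtaaatgaaatgtggaaatgaccctccctg
Cfl2, probe A_51_P302149, chr12:55960377-55960436 (mm9, minus strand): agtggttaaatgtctaggcttccatttaaa

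The starts of the Limk2 probes lie 1008 bases apart both in the genome and along the transcript, so no intron separates them, and the same holds for the Cfl1 probes at 497 bases. The probes of a pair do not overlap, so each pair gives 2 separate readings of 1 gene on the same RNA. Exon and UTR annotation of this build was not used here.

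Limk2 encodes a LIM kinase expressed in many tissues. On replicates 1, 2 and 3 its first probe (A_51_P289223) had processed signals of 1734, 1790 and 2844 in Cy5, against 2357, 2330 and 5445 in Cy3. Cy5 was the lower channel on every array, with the widest gap on replicate 3. The log2 ratios were -0.70, -0.55 and -0.91 and averaged -0.72 ± 0.18 (SD, n = 3), which is 1.65-fold lower in the channel labelled Lrrc10-/-. Limma's adjusted p of 0.0450 over 28328 tested probes is the value that selected the gene, and the next probe in this direction, for Fkbp10, a chaperone of collagen folding, lay just outside the threshold at an adjusted p of 0.0512 and a mean of -0.64.

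The second Limk2 probe (A_52_P393755) had processed signals of 1520, 1025 and 1939 in Cy5 and 1988, 1202 and 2763 in Cy3. Cy5 was again lower on each array. Its log2 ratios were -0.56, -0.37 and -0.48, averaging -0.47 ± 0.09 (SD, n = 3), and 84.7% of tested probes had a larger SD. This probe was nearer to 0 than the first on every array, by 0.14, 0.18 and 0.44, and its adjusted p in limma was 0.148. The pair thus gave the same direction at different sizes, and only the first probe passed the threshold.

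The call on the first Limk2 probe depended on the processing and on the arrays included. Limma's adjusted p was 0.383 without replicate 1 and 0.210 without replicate 2, at means of -0.73 and -0.81, and the call was lost under 9 of 14 alternatives. The mean stayed between -0.81 and -0.59 under all of them. Among probes of other genes, the 3 whose 3 log2 ratios lay nearest to those of this probe were for Hunk, a kinase, Mpped2, a metallophosphoesterase, and Ddx3x, an RNA helicase, with means of -0.67, -0.62 and -0.61. Their Euclidean distances from Limk2 were 0.11, 0.19 and 0.21 among 24278 probes compared over 3 arrays.

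Limk1 encodes the other LIM kinase. Its probe had processed signals of 1056, 2045 and 3305 in Cy5 and 1108, 2825 and 4578 in Cy3. The channels were close on replicate 1 and further apart on replicates 2 and 3. The log2 ratios were -0.19, -0.64 and -0.46 and averaged -0.43 ± 0.23 (SD, n = 3), and the 95% interval ran from -0.74 to -0.12. Limk1 had the lowest p of the 15 probes, an unadjusted 0.0135 in limma, but its adjusted p was 0.236, and 331 tested probes with lower signal in Cy5 had a p at or below it. Across the pooled hearts, fewer cells of a type and less RNA per cell cannot be told apart. The first Limk2 probe minus Limk1 was -0.52, 0.09 and -0.46 on replicates 1, 2 and 3, so the LIM kinases did not keep 1 order.

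**Figure D1:**
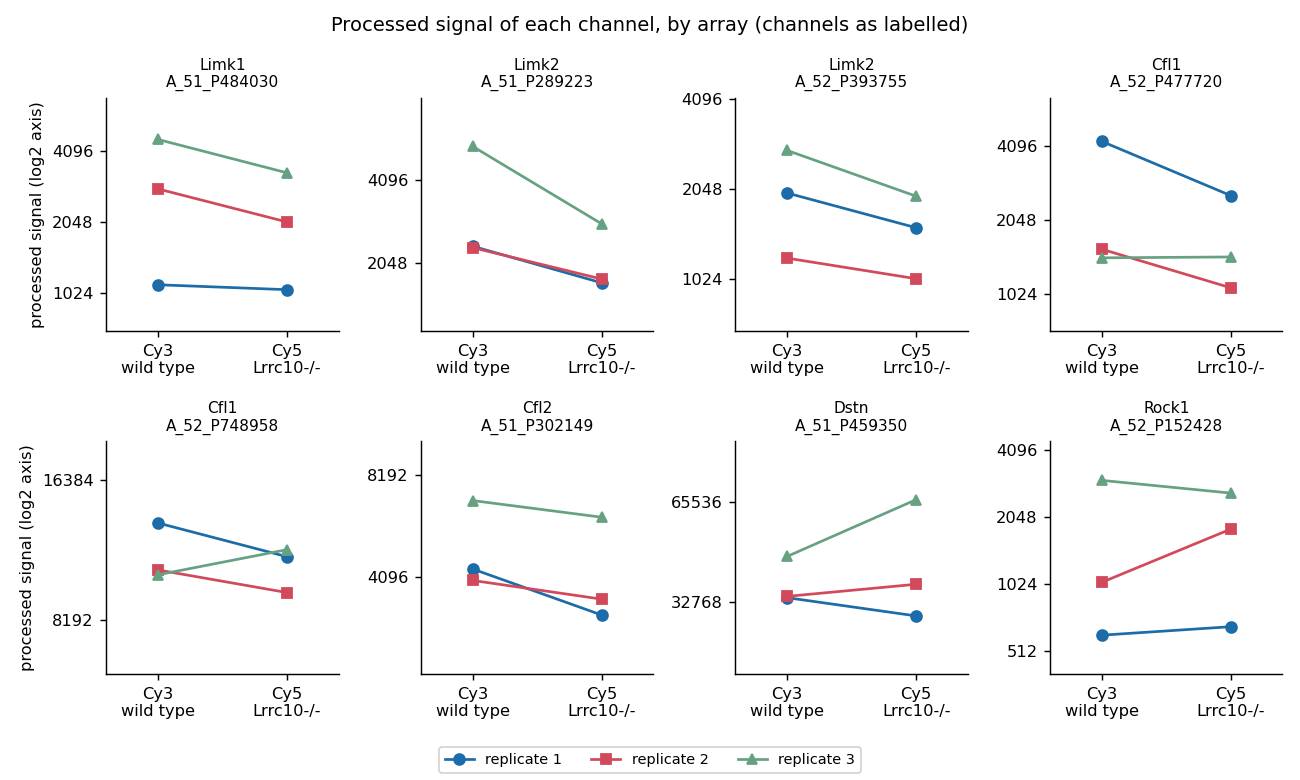
Processed signal (log2 axis, scanner software units) in Cy3 (labelled wild type) and Cy5 (labelled Lrrc10-/-) for 8 probes, with 1 line per array. Lines for both Limk2 probes, Limk1 and Cfl2 slope down on all 3 arrays, whereas Cfl1, Dstn and Rock1 have an array that slopes the other way.

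Cfl1, the cofilin of non-muscle cells, was read by a pair of probes that varied together across arrays but not in 1 direction. The first probe (A_52_P477720) had log2 ratios of -0.63, -0.43 and 0.03, and the second (A_52_P748958) of -0.44, -0.23 and 0.19. Both were lower on replicates 1 and 2 and above 0 on replicate 3. Their means were -0.34 ± 0.34 and -0.16 ± 0.32 (SD, n = 3), with limma's adjusted p at 0.396 and 0.684. The first probe lay below the second by 0.19, 0.20 and 0.15, a gap that was almost the same on each array, so the change of sign on replicate 3 was seen by both readings. Without replicate 3, the first Cfl1 probe was called lower, at -0.53 with an adjusted p of 0.0379 in limma.

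Cfl2, the cofilin of muscle, had processed signals of 3159, 3520 and 6157 in Cy5 and 4326, 4000 and 6899 in Cy3. Cy5 was lower on each array, by most on replicate 1. The log2 ratios were -0.64, -0.25 and -0.18 and averaged -0.36 ± 0.25 (SD, n = 3), and the 95% interval ran from -0.67 to -0.04. The unadjusted p was 0.0321 and the adjusted p in limma was 0.321, so Cfl2 did not pass.

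Dstn encodes destrin, also called actin depolymerizing factor, the third member of the cofilin family. Its log2 ratios were -0.18, 0.24 and 0.75, averaging 0.27 ± 0.47 (SD, n = 3), at an adjusted p of 0.561 in limma. Replicate 1 was below 0 and the others above it. On replicate 3 the Cy5 spot was saturated, so that ratio is a lower bound. The mean was 0.03 without replicate 3 and 0.49 without replicate 1. The cofilin family therefore held no gene called, and its 4 probes showed all 3 arrays on 1 side of 0 only for Cfl2.

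Rock1 and Rock2 encode kinases that phosphorylate LIM kinases. The Rock1 probe of lowest p (A_52_P152428, on chromosome 18) had log2 ratios of 0.54, 1.01 and -0.09, averaging 0.48 ± 0.55 (SD, n = 3), at an unadjusted p of 0.0452 and an adjusted p of 0.363 in limma. It was higher on replicates 1 and 2 and near 0 on replicate 3. A second probe (A_52_P513358), whose 60 bases match a stretch of 6461 genomic bases and so cross an exon junction, read 1.29, 0.18 and -0.48, with an adjusted p of 0.667. The third (A_52_P119672) read 0.01, 0.39 and -0.01, with an adjusted p of 0.712.

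The 3 Rock1 probes differed in size on each array, and only on replicate 2 were all of them above 0.1 on the log2 scale. SDs of the first and second probes were among the widest measured: 4.72% and 0.653% of tested probes had a larger one. The Rock1 values depended on each array. Without replicate 3, the first probe was called higher at 0.77 (limma, adjusted p = 0.00472) and the second at 0.73 (limma, adjusted p = 0.0312), while the third read 0.20. Without replicate 1, the second probe turned to -0.15, and without replicate 2 the first was at 0.22.

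Rock2 had log2 ratios of -0.48, -0.03 and -0.20. The gap was close to 0 on replicate 2, where the deposited software ratio was 0.09, on the other side of 0. The mean was -0.23 ± 0.23 (SD, n = 3), with an adjusted p of 0.499 in limma, and it was -0.11 without replicate 1. Thus the ROCK kinases had means on opposite sides of 0, and neither was called.

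**Figure D2:**
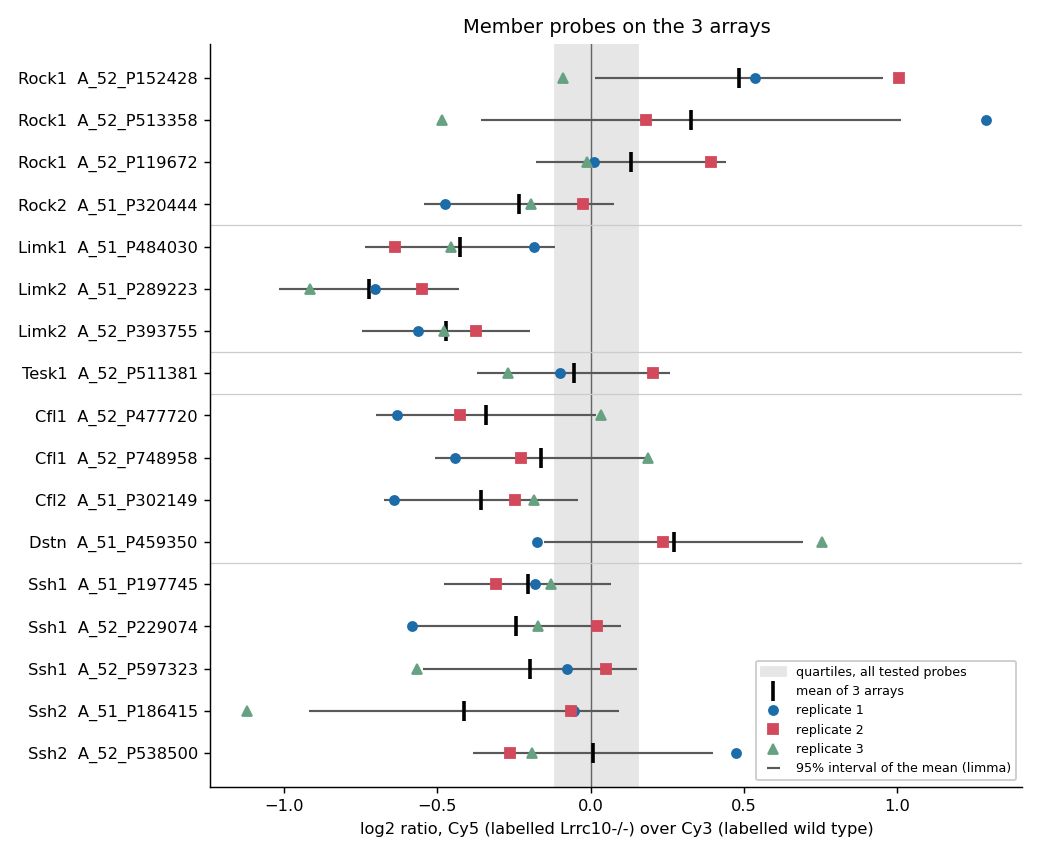
Log2 ratio of Cy5 over Cy3 (horizontal axis) for each of the 17 probes (rows, by role), with 1 symbol per array, the mean as a black mark and limma's 95% interval as a line. Grey marks the quartiles of all tested probes, from -0.11 to 0.15, and Limk1, Limk2 and Cfl2 are the genes whose intervals lie wholly below 0. The interval of the first Rock1 probe lies wholly above 0.

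Tesk1, a testis-enriched kinase that also phosphorylates cofilin, had log2 ratios of -0.10, 0.20 and -0.27. These lay on both sides of 0, averaging -0.06 ± 0.24 (SD, n = 3), at an adjusted p of 0.894 in limma. The 95% interval of -0.37 to 0.26 leaves room for a difference in either direction.

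The slingshot phosphatases oppose LIM kinase at cofilin. Ssh1 was read by 3 probes, with means of -0.21, -0.24 and -0.20 and adjusted p-values in limma of 0.498, 0.521 and 0.610. All 3 means were below 0 and within 0.05 of each other, although only the first (A_51_P197745), at -0.18, -0.31 and -0.13, was lower on each array. The second (A_52_P229074) was a dim spot, well above background in Cy5 on 2 of 3 arrays and in Cy3 on 3. The closeness of the means was not kept: in the deposited software ratio they were -0.14, -0.675 and -0.39. Without replicate 1 the second was at -0.07, and without replicate 3 the third was at -0.01.

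The Ssh2 probes disagreed. The first (A_51_P186415) had log2 ratios of -0.06, -0.06 and -1.12, averaging -0.41 ± 0.61 (SD, n = 3), and the second (A_52_P538500) read 0.48, -0.26 and -0.19, with a mean of 0.01 ± 0.41. Adjusted p-values in limma were 0.464 and 0.989. The mean of the first came almost wholly from replicate 3, and without that array it was -0.06. The sign of the second turned under 5 of 14 alternatives.

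Counts over the 15 probes without Limk2 were read against all tested probes. Of the 15, 0 were called higher and 0 lower by limma, against 1.39% and 0.00353% of all tested probes. At an unadjusted p under 0.05, 1 was higher (Rock1) and 2 were lower (Limk1 and Cfl2), against 9.07% and 4.26%, a split over all tested probes of 2569 higher and 1208 lower that became 1927 and 1939 with median centring in place of loess. For the 15, median centring gave 0 higher and 3 lower, the deposited software ratio, the methods' t-test and leaving out replicate 2 each gave 0 and 0, and leaving out replicate 3 gave 2 and 4. Over all tested probes, the same cut-off gave 1863 higher and 700 lower without replicate 2, and 3993 and 2107 without replicate 3. In the deposited software ratio it gave 1307 and 594. Those counts fell and rose as the counts for the 15 did. The log2 ratio was above 0 on all 3 arrays for 0 of 15, against 19.1%. It was below 0 on all 3 for 5 of 15 (Rock2, Limk1, Cfl2 and 1 probe each of Ssh1 and Ssh2), against 17.4%. This count depended on the normalization: in the deposited software ratio it was 4 of 15 (Limk1, Cfl2 and 2 probes of Ssh1), against 19.3%. The median log2 ratio was -0.20, against 0.01 over all tested probes, and 10 of 15 means were below 0, against 47.4%. Without replicate 3 the median of the 15 was -0.06. Several of these probes read the same gene, so they are not separate observations.

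Leaving out replicate 3 gave the only calls among the 15 under the alternatives run: 2 of the 3 Rock1 probes higher and the first Cfl1 probe lower. On those 2 arrays 5.49% of all tested probes were called higher and 0.875% lower. Without replicate 2, on which liver markers lay furthest from 0, none of the 15 was called. Over all 28328 tested probes only 1 was then called higher and 0 lower, so this absence says little about the members. Limk1, Cfl2 and the first Rock1 probe had means of -0.32, -0.41 and 0.22 without replicate 2. The part of liver tissue in these values was not tested.

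Markers of heart cell types were set beside the pathway. The 3 cardiomyocyte markers without saturation (Actn2, Nkx2-5 and Ryr2) had means from -0.28 to -0.02, and 0 of 7 were called. Summed processed signals of the 7, saturated spots included, ran from 203634 to 359700 in Cy5 and from 220585 to 489417 in Cy3. Smooth muscle markers were below 0 for 5 of 5, with Tagln lowest at -0.49 and Myh11 highest at -0.04, and their sums ran from 92477 to 177704 in Cy5 and from 101723 to 228904 in Cy3. Only 4 of these 5 were without saturation: Acta2 was saturated in both channels on 3 arrays, so its sign is uncertain. Fibroblast and mesenchyme markers were below 0 for 5 of 7, from Col1a2 at -0.51 to Lum at 0.07, with sums of 123881 to 266480 in Cy5 and 130317 to 336726 in Cy3. Of these 7, 6 were without saturation, and Col1a2 was saturated in Cy3 on 1 array. Medians were 0.02 for endothelial, -0.07 for epicardial, -0.22 for erythroid and -0.19 for macrophage markers. Endothelial markers were below 0 for 3 of 6, from Tie1 at -0.44 to Cdh5 at 0.28. Macrophage markers were below 0 for 5 of 7, from Cd68 at -0.28 to Csf1r at 0.90. The erythroid median includes saturated probes, since only 4 of its 6 markers were without saturation. None of these lists had a marker called, every marker tested was well above background in both channels on all arrays, and their part in the LIM kinase and cofilin values was not tested.

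Around the members, 47 further genes of the pathway were all tested, and 0 were called in either direction by limma. At an unadjusted p under 0.05, 1 was higher (Ppp1r12b) and 2 were lower (Rac1 and Add1), next to the 9.07% and 4.26% of all tested probes. Means were below 0 for 28 of 47, next to 47.4% of all tested probes, and their median was -0.04. Only 40 of the 47 had no saturated spot, and the signs of the others are uncertain. These counts take the brightest probe of each gene. Over all 81 tested probes of the 47 genes, still 0 were called, and at an unadjusted p under 0.05, 1 was higher and 7 were lower. The added ones were for Cdc42, Pak2, Nisch and, with 2 probes, Msn, the gene of the ROCK substrate moesin. Those Msn probes had means of -0.62 (limma, adjusted p = 0.0598) and -0.32, but its brightest probe was at 0.04. The brightest probes of Cdc42 and Pak2 were likewise nearer to 0, at -0.08 and -0.02.

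Among 11 GTPases and kinases upstream of LIM kinase, of which 10 had no saturated spot, 7 were below 0, with a median of -0.08. Rac1, the GTPase that drives p21-activated kinases, had log2 ratios of -0.27, -0.36 and -0.36 (mean -0.33, limma adjusted p = 0.278), but its other probe had a mean of 0.12. Rhob, a small GTPase, was at 0.05, 0.29 and 0.36 (mean 0.23, limma adjusted p = 0.471). Both kept 1 sign on the 3 arrays, in opposite directions.

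Of 8 other regulators of LIM kinase or cofilin, 6 were below 0, with a median of -0.08. Only 6 of the 8 had no saturated spot, and both Nisch and Hsp90aa1, which were saturated, are counted as below 0. Ywhaz encodes a 14-3-3 protein, a family that binds phosphorylated cofilin and slingshot. It had log2 ratios of -0.86, -0.76 and 0.27 (mean -0.45, limma adjusted p = 0.436), and its other probe a mean of -0.08. Like Cfl1, it was lower on replicates 1 and 2 and higher on replicate 3, and without replicate 3 it was called lower, at -0.81 (limma, adjusted p = 0.00182). The other gene of lowest p here, Nisch, encodes nischarin, a LIM kinase inhibitor, and its brightest probe was saturated in Cy5 on 3 arrays and in Cy3 on 2, so no fold is given for it. The 3 other Nisch probes disagreed, with means of -0.67 (limma, unadjusted p = 0.00268, adjusted p = 0.113), -0.09 and 0.14.

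The 19 partners of cofilin in actin turnover, of which 16 had no saturated spot, had 9 means below 0 and a median of 0.01. Twf2, a twinfilin that binds actin monomers, was at 0.37, 0.21 and 0.21 (mean 0.26, limma adjusted p = 0.392). Capza2, a subunit of the capping protein of filament ends, was at 0.29, 0.37 and 0.13 (mean 0.27, limma adjusted p = 0.396), with its other probe at -0.03. Both were above 0 on each array and neither passed.

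Of 9 other ROCK substrates, of which 8 had no saturated spot, 6 were below 0, with a median of -0.06. Ppp1r12b encodes a targeting subunit of myosin phosphatase, which ROCK inhibits. Its log2 ratios were 0.44, 1.27 and 0.84, averaging 0.85 ± 0.42 (SD, n = 3), at an adjusted p of 0.0732 in limma. It was higher on each array and was called higher without replicate 3, at 0.86 (limma, adjusted p = 0.00564), and with array weights, at 0.89 (limma, adjusted p = 0.0470). Add1, an adducin that caps and bundles filaments, was at -0.48, -0.33 and -0.51, averaging -0.44 ± 0.10 (SD, n = 3), at an adjusted p of 0.174 in limma.

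**Figure D3:**
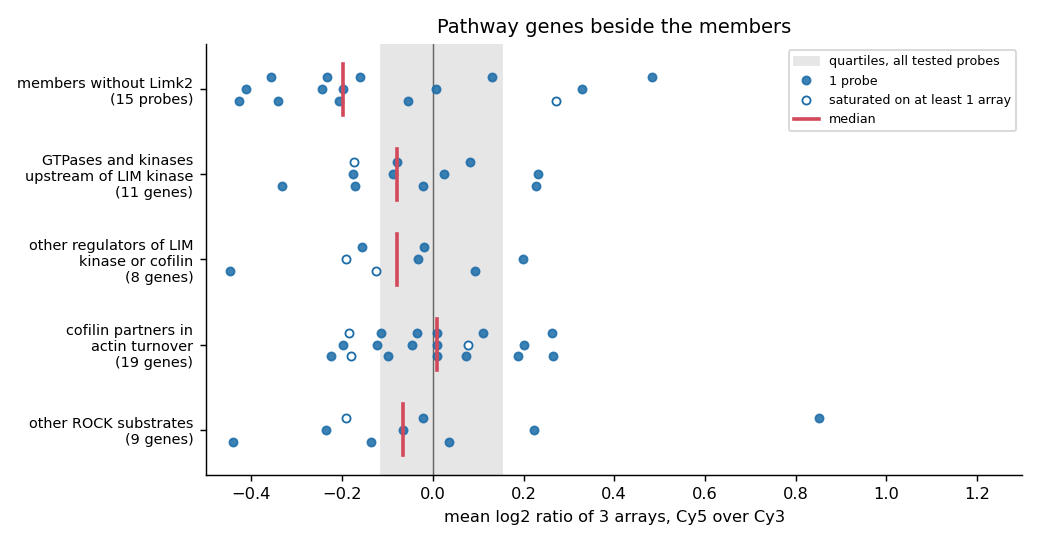
Mean log2 ratio of 3 arrays (horizontal axis) for the 15 probes without Limk2 and for 47 further pathway genes in 4 lists, 1 point per probe, with medians in red and the quartiles of all tested probes in grey. The point furthest to the right is Ppp1r12b at 0.85, and open points had a saturated spot on at least 1 array.

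Under other choices of background correction, normalization, filter, weights and test, 15 of the 17 probes kept their sign, and those for Tesk1 and the second Ssh2 probe turned. The second Rock1 probe turned as well when replicate 1 was left out, which leaves 14. Limk1 ranged from -0.55 to -0.32 and Cfl2 from -0.44 to -0.22 over all alternatives, single arrays left out included. Neither was called under any of them.

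**Figure D4:**
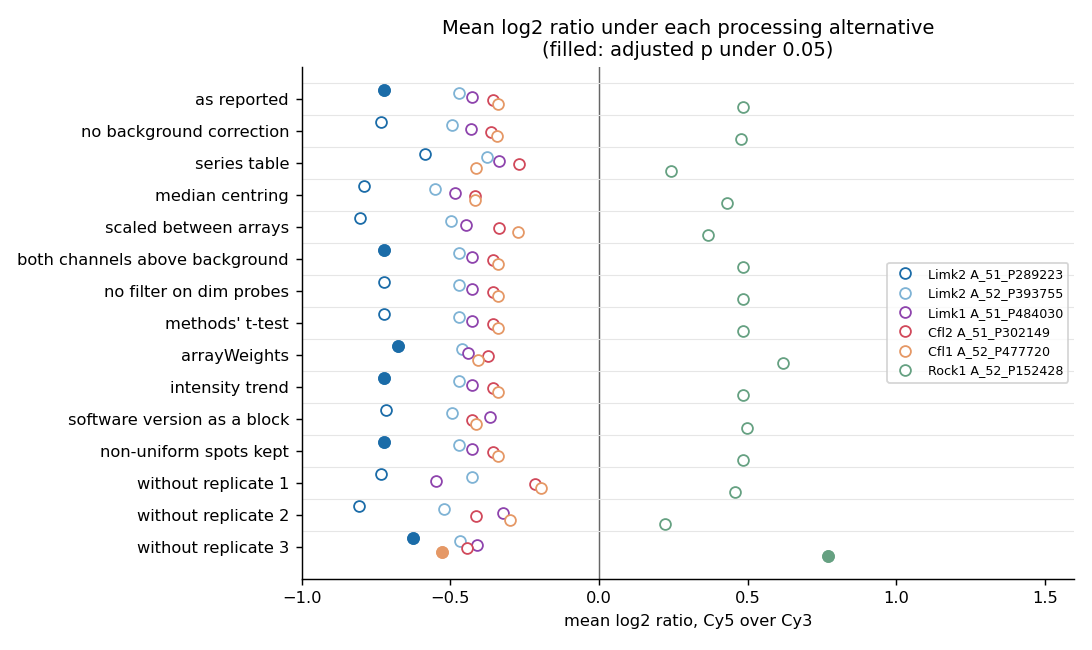
Mean log2 ratio of Cy5 over Cy3 (horizontal axis) for 6 probes under each processing choice (rows), filled where the adjusted p was under 0.05. Both Limk2 probes, Limk1, Cfl2 and Cfl1 stay below 0 in every row and Rock1 above it, and the fills move with the choice.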

How the data were processed

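The deposited files hold spot intensities in Cy5 and Cy3. Per the file headers, Agilent Feature Extraction 9.1.3.1 with a G2505B scanner was used for replicate 1 and 10.7.3.1 with a G2505C scanner for replicates 2 and 3, whereas the submitters' processing notes name 9.5. The authors' software subtracted background and normalized dyes to give the processed signal. The deposited log10 ratio is processed Cy5 over processed Cy3, and the series table equals it, with the same scale, centring and direction.

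From the deposited intensities, limma 3.58.1 (run in R 4.3.3) gave log2 ratios (normexp, offset 50, then loess within array with control spots at weight 0). Non-uniform spots were left out and spots of 1 probe averaged. A probe was tested where 1 channel, Cy5 or Cy3, was well above background on every array. The 3 ratios were tested against 0 (lmFit, eBayes, two-sided), with Benjamini-Hochberg adjustment over all tested probes and a threshold of 0.05, and the code was tested on simulated data. The number of arrays limits the precision. A channel counted as saturated where flagged or within 1% of the scanner's limit.

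Named were all member probes, Lrrc10, the 2 genes of lowest p in each pathway list, the 3 probes nearest to Limk2 and the next probe outside the threshold. A listed gene was represented by its tested probe of highest intensity. Msn, Cdc42, Pak2, Actg1 and the markers named were picked after their values were seen. Members and lists were chosen with earlier results of these data known. Symbols are those of the files, and 26924 of 27379 RefSeq accessions matched RefSeq's table.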

Additional observations from a re-analysis of the deposited data

How the results depend on the processing

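The test was already paired, since each ratio compares both genotypes on 1 array, and no further replicate block could be fitted. The number of probes called higher over all tested (395) was 1 without background correction, 0 with the series table, 0 with scaling between arrays, 145 with no filter on dim probes, 0 with the methods' t-test and 1 with software version as a block, and ran from 1 to 1556 when single replicates were left out. The number called lower (1) was 0 without background correction, with the series table, with scaling, with no filter, with the methods' t-test and with the block, 2 with median centring, 11 with array weights and 3 with an intensity trend, and ran from 0 to 248 when single replicates were left out. At unadjusted p under 0.05, the methods' t-test gave 1529 higher and 1103 lower.

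Among the 15 probes without Limk2, calls ran from 0 to 2 higher and 0 to 1 lower when single replicates were left out. Counting every tested probe of the 47 pathway genes, a choice made after seeing the data, gave 0 calls in either direction. Of the 47 genes, 1 was called higher with array weights, and from 0 to 1 higher and 0 to 1 lower when single replicates were left out. Lrrc10 was not called with the series table (5.21, limma adjusted p = 0.270), with scaling (4.62, limma adjusted p = 0.424) or with the methods' t-test (4.41).

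Signs turned for the second Rock1 probe (-0.15 to 0.73 with single replicates left out, below 0 without replicate 1), for Tesk1 (0.00016 with array weights, and -0.19 to 0.051 with single replicates left out, above 0 without replicate 3) and for the second Ssh2 probe (-0.0069 without background correction, -0.11 with the series table, -0.045 with median centring, -0.03 with scaling, and -0.23 to 0.14 with single replicates left out, below 0 without replicate 1). The cause was not tested. Of 237 values of the 17 probes under the alternatives, 217 kept direction and side of the threshold, 8 turned, 9 lost the call, all for Limk2, and 3 gained one.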
